A study of Caenorhabditis elegans with 2 samples.

Results

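The starts of 61 genes of the cell cycle and of DNA replication were examined for sites of GFP-tagged ZK185.1, a protein assayed as a transcription factor, in chromatin of the nematode Caenorhabditis elegans. The genes were the protein-coding genes, among 19973 on the nuclear chromosomes, whose symbols begin with mcm, cdk, cyb, cya, cye, cyd, orc, cdc, cdt, psf, rnr, pcn, rfc, pri or cki followed by a number, without the cdc-48 genes. They comprised 29 DNA replication genes, 21 genes of cyclins, cyclin-dependent kinases and their inhibitors, and 11 other cdc genes. The replication class is by symbol and includes mcm-3AP, named for an MCM3-associated protein. The rule goes by symbols and uses no measured value, but it was set with earlier results of these data known. The worms were hermaphrodite young adults of strain OP474, genotype unc-119(tm4063) III; wgIs474, harvested 56.25 h after starved L1 larvae had been synchronized following bleaching. Both libraries share the unc-119 mutation and the transgene, which adds GFP-FLAG to the C terminus of ZK185.1, and chromatin was precipitated with an anti-GFP antibody. There were 2 biological replicates of 1 group and no second condition, and the labels do not give the cells that express the transgene. The replicates were separate biosamples of 1 transgenic line. Whole animals were used, so strong occupancy in few cells and weak occupancy in many cannot be told apart.

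Chromosomes are copied once per division by an ordered set of complexes. The origin recognition complex (orc genes), CDC-6 and CDT-1 load the MCM helicase, kinases and the GINS complex (psf genes) switch it on, and primase, the sliding clamp PCNA (pcn-1) and its loader replication factor C (rfc genes) act at the moving fork. Cyclins bind cyclin-dependent kinases to drive the steps of the cycle, and CKI proteins inhibit them. In adult hermaphrodites the germ line is the main dividing tissue. Of the symbols that the rule matches, 6 are known for other processes: cdc-42 (a cell polarity gene), cdc-5L (a splicing factor gene), cdc-37 (a gene of a chaperone partner of HSP90), cdc-73 (a transcription elongation factor gene), cdc-50.B (a flippase subunit gene) and mcm-3AP. They were kept as members. Several cyclin-dependent kinases of the list act on RNA polymerase II rather than on the cycle alone.

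The files gave 4 lists of regions on the ce11 build. The relaxed lists of replicate 1, of replicate 2 and of the pooled reads held 30000 regions each. They were filled up with background by design. The optimal list, called thresholded here, held 2053 peaks and was derived by the authors with a reproducibility threshold. The signal is a peak height made by the authors on an unstated scale. Values are therefore read within a list, and rank 1 is the highest region of a list. The lowest signal was 57.0 in the thresholded list, and the median signal was 15.4 in the pooled, 5.58 in the replicate 1 and 7.96 in the replicate 2 list. For each gene the strongest region with its summit from 1000 bp upstream to 200 bp downstream of the annotated start was taken. At the genes named below with a thresholded peak in this window, its signal and rank equalled those in the pooled list. Such a peak is thus not evidence separate from the pooled region, and it need not be strong in both replicates. The genes cdc-14, cdk-11.2 and psf-1 had replicate 1 ranks of 8149, 6513 and 2681. Those of rfc-4, pcn-1 and cdc-6 lay within the first 2053 in both replicates. Many C. elegans messages are trans-spliced, so an annotated start can lie downstream of the true one. Read depth is unknown.

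A thresholded peak lay at the start of 6 of the 61 genes (9.84%), beside 6.77% of all nuclear protein-coding genes. They were 4 replication genes (rfc-4, cdc-6, pcn-1 and psf-1), the kinase gene cdk-11.2 and the phosphatase gene cdc-14. All 6 summits lay upstream of the start, between 145 and 362 bp away, while 95% of the summits of all coding genes with such a peak were upstream. The peaks of the 4 replication genes had signals between 159.7 and 244.9 and ranks from 167 to 438. Those of cdk-11.2 and cdc-14 had 70.9 and 74.6 and ranks 1499 and 1401. The median over all coding genes with a peak was 106, so that the replication peaks lay above it and the other 2 below. The count depended on the replicate. Among the 2053 strongest regions of replicate 2 alone, 12 of the 61 genes had one (19.7%, all coding genes 7.0%), and among those of replicate 1 alone 6 had one (9.84%, all coding genes 5.95%). These counts are small, and no test of the list was made.

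rfc-4, a subunit gene of the clamp loader (WBGene00004340, chromosome III, 6972253 to 6973717, plus strand), had the strongest peak of the 61 genes, at III 6971965 to 6972186. Its signal was 245 in the pooled list, 108.5 in replicate 1 and 90.9 in replicate 2, with ranks 167, 154 and 381. The replicate summits were 7 bp apart. It was high in both libraries. The summit lay 168 bp upstream of rfc-4 and 373 bp upstream of eef-1A.1, a translation elongation factor gene that starts 541 bp away on the other strand. The annotated start of the microRNA gene cel-mir-5549 coincided with the summit. To which of these genes the site belongs cannot be told apart from its position.

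pcn-1, the gene of PCNA (WBGene00003955, chromosome IV, 4047937 to 4049448, minus strand), had a peak at IV 4049647 to 4049804, with its summit 278 bp upstream. The signal was 172 in the pooled list, 75.6 in replicate 1 and 53.8 in replicate 2, with ranks 371, 302 and 906. The replicate summits were 19 bp apart. No other coding start had this summit in its window, and no divergent coding gene started within 1000 bp.

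psf-1, a GINS subunit gene (WBGene00011275, chromosome II, 9968673 to 9969630, plus strand), had a peak at II 9968436 to 9968599, with its summit 145 bp upstream. The signal was 159.7 in the pooled list, 17.8 in replicate 1 and 109 in replicate 2, with ranks 438, 2681 and 263. The site was thus among the strongest of replicate 2 but outside the 2053 strongest of replicate 1, although the summits were only 5 bp apart. The summit lay within the ncRNA genes R53.9 and R53.11, 14 and 74 bp downstream of their starts, and 479 bp upstream of the divergent coding gene R53.4.

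cdk-11.2, a gene of the CDK11 kinase family (WBGene00013917, chromosome X, 10416631 to 10419765, minus strand), had a peak at X 10419807 to 10420122, with its summit 200 bp upstream and no other coding start in reach. Its signal was 70.9 in the pooled list, 10.2 in replicate 1 and 37.9 in replicate 2, with ranks 1499, 6513 and 1478. cdc-14, a mitotic phosphatase gene (WBGene00000383, chromosome II, 5589038 to 5593427, minus strand), had a peak at II 5593758 to 5593841, with its summit 362 bp upstream and 925 bp upstream of ttc-4. Its signal was 74.6 in the pooled list and 42.9 in replicate 2, with ranks 1401 and 1253 and with summits near each other. In replicate 1 the strongest region lay elsewhere in the window, 66 bp downstream of the start, with a signal of 8.825 and rank 8149. Both sites thus ranked higher in replicate 2 than in replicate 1.

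The bases within 50 bp of the summit are shown for the sites described so far, to let their composition be compared, followed by 2 weaker sites treated further on: the region shared by orc-5 and cyb-1 and the replicate 2 region of cdk-5. They were read from the RefSeq genome of WBcel235 on the strand of the gene. Capitals mark a match, on either strand, to one of 6 words searched: TTCCCGC and the related TTTCGCG, which resemble E2F sites, the promoter word CTGCGTC, the GC box GGGCGG, the TATA box word TATAAA and the repeat GAGAGAG. The cdc-6 sequence is not shown.
rfc-4, chrIII:6972035-6972135, plus strand: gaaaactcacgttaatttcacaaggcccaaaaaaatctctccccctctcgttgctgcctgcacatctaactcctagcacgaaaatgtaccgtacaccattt
pcn-1, chrIV:4049676-4049776, minus strand: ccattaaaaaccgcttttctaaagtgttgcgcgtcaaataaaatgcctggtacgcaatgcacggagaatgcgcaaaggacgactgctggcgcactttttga
psf-1, chrII:9968478-9968578, plus strand: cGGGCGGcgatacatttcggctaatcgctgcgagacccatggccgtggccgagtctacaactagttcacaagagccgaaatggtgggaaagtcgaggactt
cdk-11.2, chrX:10419915-10420015, minus strand: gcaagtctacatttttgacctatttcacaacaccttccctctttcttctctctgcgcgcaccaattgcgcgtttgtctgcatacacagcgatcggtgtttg
cdc-14, chrII:5593739-5593839, minus strand: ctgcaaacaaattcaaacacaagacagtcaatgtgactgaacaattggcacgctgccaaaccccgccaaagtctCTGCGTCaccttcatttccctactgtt
orc-5 and cyb-1, chrIV:10734667-10734767, minus strand: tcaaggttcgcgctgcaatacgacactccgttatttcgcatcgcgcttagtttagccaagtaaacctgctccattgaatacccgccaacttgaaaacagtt
cdk-5, chrIII:13466357-13466457, minus strand: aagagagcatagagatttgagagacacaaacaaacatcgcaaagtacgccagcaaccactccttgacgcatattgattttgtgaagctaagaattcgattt

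Among the 6 thresholded summits, CTGCGTC occurred at cdc-14 and GGGCGG at psf-1, and the other 4 words at none. Over all 2034 nuclear thresholded summits CTGCGTC occurred in 7.87%, GGGCGG in 5.60%, GAGAGAG in 8.75%, TATAAA in 5.65%, TTTCGCG in 3.10% and TTCCCGC in 2.16% of windows reaching 50 bp to either side. The median GC content was 46.5% at the 6 summits and 45.5% at all 2034. With 6 sites these shares cannot be compared. Across the 30 distinct pooled summits of the 61 genes, TTTCGCG occurred at 3, all in start windows of replication genes: cdt-2, mcm-3 and pri-1. That word occurred at 1.55% of the 6338 distinct strongest pooled summits of all coding genes, whose median GC content was 37.6% against 42.1% at the 30. TTCCCGC occurred at none of the 30 and at 1.2% of the 6338. TATAAA also occurred at 3 of the 30 (10.3% of the 6338), and CTGCGTC at 2 (3.36% of the 6338). GGGCGG and GAGAGAG occurred at 1 each (2.87% and 4.12% of the 6338). Of the 3 summits with TTTCGCG, those of mcm-3 and pri-1 lay nearer to a divergent neighbour. The mcm-3 summit lay 165 bp upstream of mcm-3 and 44 bp upstream of C25D7.15. The pri-1 summit lay 155 bp upstream of pri-1 and 46 bp upstream of F58A4.6. A match of letters is a description, and binding of a factor to it was not measured. Of the 3, the stretches outside annotated untranslated regions at mcm-3 and pri-1 are shown for the place of the word, in capitals.
mcm-3, chrV:15059714-15059807, minus strand: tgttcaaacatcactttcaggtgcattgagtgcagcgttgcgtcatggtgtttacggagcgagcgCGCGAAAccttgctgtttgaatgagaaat
pri-1, chrIII:9614386-9614481, minus strand: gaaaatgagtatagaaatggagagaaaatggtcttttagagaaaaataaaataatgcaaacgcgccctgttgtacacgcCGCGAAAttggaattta

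The peak at cdc-6, the gene of the helicase loading factor (WBGene00000382, 4268070 to 4270287, minus strand), lay at 4270463 to 4270649 on chromosome I. Its signal was 179 in the pooled list, 45.4 in replicate 1 and 85.1 in replicate 2, with ranks 339, 666 and 442, and the replicate summits were 15 bp apart. It was strong in both libraries. The summit lay 283 bp upstream of cdc-6 but only 96 bp upstream of the divergent gene acin-1, which starts 379 bp from cdc-6. When each summit counted only for the nearest coding start, cdc-6 lost its peak and 5 of the 61 genes (8.2%) kept theirs, beside 4.93% of all coding genes.

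**Figure D1:**
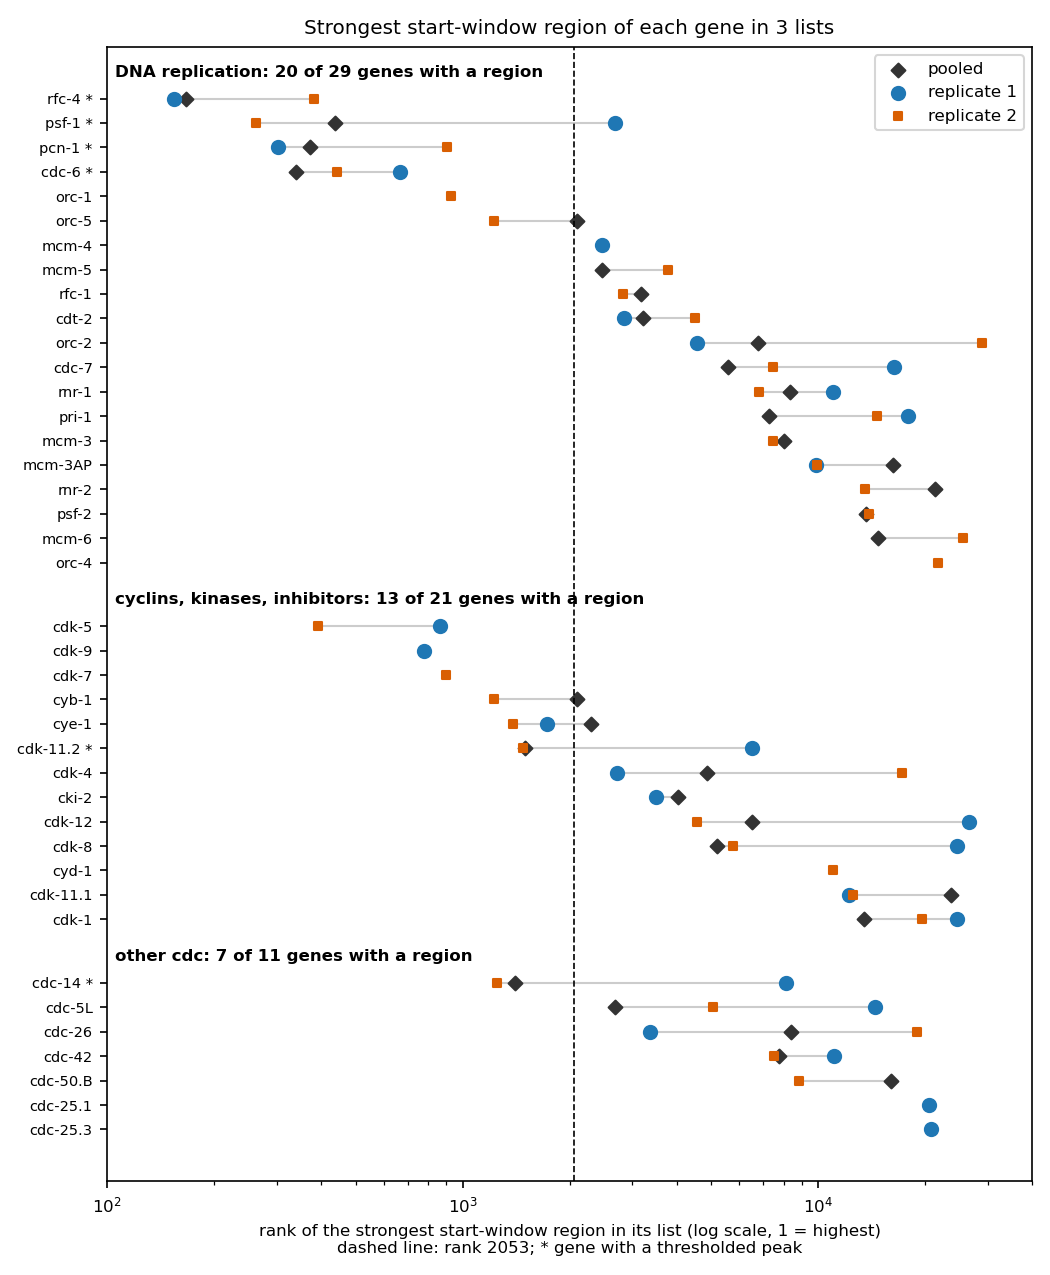
Rank of the strongest start-window region of each gene (log scale, 1 being the highest) in the pooled list (diamonds), replicate 1 (circles) and replicate 2 (squares), for the 40 genes with a region in at least 1 list. Grey lines join the values of a gene, the dashed line marks rank 2053 and asterisks mark the 6 genes with a thresholded peak. rfc-4, pcn-1 and cdc-6 lie left of the line in all 3 lists, while orc-1, cdk-9 and cdk-7 have a strong region in 1 replicate and none in the pooled list.

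Replication genes and cyclin-kinase genes were set side by side. Thresholded peaks were found at 4 of 29 replication genes (13.8%), at 1 of 21 cyclin, kinase and inhibitor genes (4.76%) and at 1 of 11 other cdc genes (9.09%). The share of all coding genes was 6.77%. In the pooled relaxed list 17 of 29 replication genes (58.6%), 9 of 21 cyclin-kinase genes (42.9%) and 5 of 11 other cdc genes had a region, beside 36.8% of all coding genes. The order of the first 2 classes depended on the list. In replicate 2 alone, 6 of 29 replication genes (20.7%) and 5 of 21 cyclin-kinase genes (23.8%) had one of the 2053 strongest regions. The share of all coding genes there was 7.0%. In replicate 1 alone the counts were 3 (10.3%) and 3 (14.3%), beside 5.95% of all coding genes. Among the 2053 strongest regions, the higher share at replication than at cyclin-kinase genes was thus not seen in either replicate taken alone. In the relaxed lists it was seen in replicate 2 (65.5% and 52.4%, all coding genes 37.3%). In the relaxed list of replicate 1 it was not (37.9% and 47.6%, all coding genes 36.8%). Replication and cyclin-kinase genes with a pooled region had median signals of 28.8 and 31.5, while the median over all 7347 coding genes with one was 20.7.

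**Figure D2:**
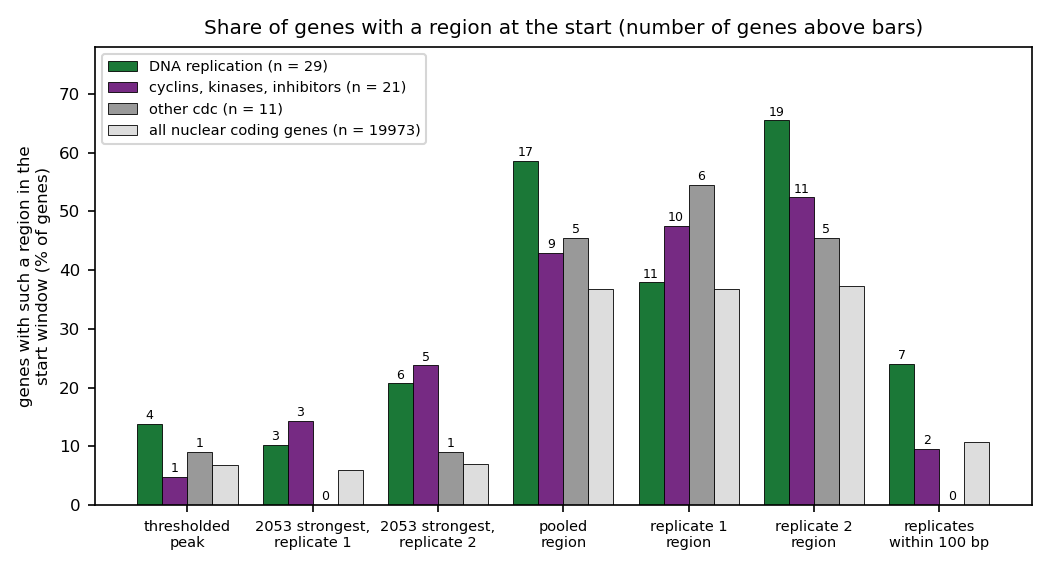
Share of genes (%) with a region in the start window, by list, for replication genes, cyclin, kinase and inhibitor genes, other cdc genes and all 19973 nuclear coding genes, with the number of genes above the bars of the 3 classes. Thresholded peaks are found at 13.8% of replication and 4.76% of cyclin-kinase genes, beside 6.77% of all coding genes. Among the 2053 strongest regions of replicate 2 the shares are 20.7% and 23.8%, beside 7.0% of all coding genes.

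Summits of the 2 replicates were also compared by class. Of 10 replication genes with a region in both replicates, 7 had their strongest summits within 100 bp of each other, with a median distance of 32 bp. These were rfc-4, pcn-1, psf-1, cdc-6, cdc-7, cdt-2 and rnr-1. Of 8 such cyclin-kinase genes only cdk-5 and cdk-11.2 did, with a median distance of 171.5 bp, and of 4 other cdc genes none did. The share over all coding genes with a region in both was 44.5%, with a median distance of 130 bp, and the difference between the classes was not tested. Over all members 9 of 61 genes (14.8%) had matched summits, beside 10.7% of all coding genes. In replicate 1, 27 of the 61 genes (44.3%) had a region, and in replicate 2, 35 (57.4%), where the shares of all coding genes were 36.8% and 37.3%. The difference came mainly from replication genes, with 11 in replicate 1 and 19 in replicate 2. Of the 29 replication genes, 9 had a region in replicate 2 only and 1 in replicate 1 only. Of all 19973 coding genes, 2630 had a region in replicate 2 only and 2528 in replicate 1 only. The signals of the 22 genes with a region in both had a Spearman rho of 0.556, and those of the 4819 coding genes with both a rho of 0.629. These are descriptions across genes, which share libraries and, in part, regions.

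None of the 5 origin recognition genes had a thresholded peak, which with so few genes is near the 6.77% of all coding genes. orc-5 (WBGene00013857, chromosome IV, 10732832 to 10734588) and the cyclin B gene cyb-1 (WBGene00000865, IV, 10735216 to 10737177) start 628 bp apart on opposite strands and share the pooled region of rank 2099, just below the threshold. Its signal was 56.05 in the pooled list and 43.5 in replicate 2 (rank 1227), and replicate 1 had no region in either window. The summit lay 129 bp upstream of orc-5 and 499 bp upstream of cyb-1. orc-1, another subunit gene of the complex, had a region in replicate 2 only, with a signal of 53.2 and rank 926, and the nearest pooled summit was 10731 bp away. orc-2 had 25.6 in the pooled list and 12.8 in replicate 1, with both summits 34 bp downstream of its start in its coding exon. Its replicate 2 region, with a signal of 4.279, was a different one, with the summit 331 bp upstream in a coding exon of copz-1. orc-4, whose start follows the end of orc-1 by 112 bp on the same strand, had 5.802 in replicate 2 only, and orc-3 had no region. Most of these genes were therefore seen in replicate 2.

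None of the 7 mcm genes, mcm-3AP not counted, had a thresholded peak, again near the 6.77% of all coding genes with so few genes. The strongest, at mcm-5 (WBGene00003157, chromosome III), had a signal of 50.15 in the pooled list (rank 2466) and 19.9 in replicate 2 (rank 3784), with its summit 240 bp upstream, and replicate 1 had none. mcm-3 had 23.0 in the pooled list and 12.8 in replicate 2, with summits 165 and 23 bp upstream. mcm-6 had 15.6 in the pooled list, with the summit 94 bp downstream of the start in a coding exon. Its replicate 2 region, with a signal of 4.928, was a different one, with the summit 426 bp upstream. mcm-4 had a region in replicate 1 only, with a signal of 18.7 and rank 2464. No list had a region at mcm-2, mcm-7 or mcm-10, and mcm-3AP had 14.5 in the pooled list. The mcm genes thus ranged from pooled rank 2466 to no region.

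Other fork and licensing genes lay in between. At cdt-2, the gene of a substrate receptor for the CUL-4 ubiquitin ligase, the pooled signal was 41.4, with 17.2 in replicate 1 and 17.9 in replicate 2 and ranks 3227, 2845 and 4496, and the summit lay 90 bp downstream of the start in an untranslated exon. rfc-1, the large subunit gene of the clamp loader, had 41.9 in the pooled list and 24.2 in replicate 2 and no region in replicate 1. cdc-7, which encodes a helicase-activating kinase, had 28.8, with 5.171 and 12.8 in replicates 1 and 2 and summits 23 bp apart, within the ncRNA genes C34G6.12 and C34G6.13. The primase gene pri-1 had 24.5 in the pooled list, 4.763 in replicate 1 and 8.104 in replicate 2, with replicate summits 716 bp apart. The ribonucleotide reductase genes, which supply deoxynucleotides, had 22.55 at rnr-1 and 11.8 at rnr-2, and psf-2 had 16.4. The median pooled rank of coding genes with a region was 9535. Of these genes, rfc-1, cdt-2, cdc-7, pri-1 and rnr-1 ranked higher, from 3171 to 8316. psf-2 and rnr-2 ranked lower, at 13627 and 21284.

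Of the 8 cyclin genes, 2 (cye-1 and cyb-1) had a pooled region (25%), beside 36.8% of all coding genes. None of the 8 had a thresholded peak at the start, where the share of all coding genes was 6.77%. With 8 genes, none is near that share. cye-1, the cyclin E gene of the G1 to S transition (WBGene00000871, 6780799 to 6784397 on chromosome I, plus strand), had 52.7 in the pooled list, 23.6 in replicate 1 and 39.9 in replicate 2, with ranks 2302, 1732 and 1385. Its summit lay 626 bp upstream of cye-1 and 22 bp upstream of the divergent gene pqn-21. A stronger, thresholded peak lay inside cye-1, at 6781745 to 6781856, in an intron 985 bp downstream of the start, outside the start window. Its signal was 189 in the pooled list, 48.8 in replicate 1 and 100.8 in replicate 2, with ranks 303, 600 and 316. The cyclin D gene cyd-1 had a region in replicate 2 only (9.939, rank 10999). cya-1, cya-2, cyb-2.1, cyb-2.2 and cyb-3 had none in the start window in any list.

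Peaks inside the gene and past the window were also found at rfc-3 and rnr-1. At rfc-3 a thresholded peak with a signal of 110 and replicate values of 44.9 and 11.8 lay 1101 bp downstream of the start, in a coding exon, while its start window was empty in all lists. At rnr-1 a peak with a signal of 67.3 and replicate values of 15.3 and 18.3 lay in an intron 366 bp downstream of the gene start and 182 bp upstream of an alternative transcript start. With every annotated transcript start counted, rnr-1 was gained, and 7 of the 61 genes (11.5%) had a thresholded peak, beside 7.28% of all coding genes.

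The strongest replicate values among the kinase genes had no counterpart in the pooled list. cdk-5, a kinase known mainly from neurons (WBGene00000407, chromosome III, 13464687 to 13466342, minus strand), had a signal of 37.3 in replicate 1 and 89.9 in replicate 2, with ranks 861 and 391 and summits 33 and 65 bp upstream of the start. The summits were 32 bp apart and lay in an intron of kel-3, which runs on the other strand. The nearest pooled summits were 1162 and 1194 bp away. cdk-7, a TFIIH kinase gene, had 54.25 (rank 897) in replicate 2 only, 1871 bp from the nearest pooled summit, and cdk-9, the gene of an RNA polymerase II elongation kinase, had 40.4 (rank 778) in replicate 1 only, 251495 bp from it. These sites are absent from the thresholded list, which was drawn from the pooled one. Across the genome, 19 of the 543 nuclear regions among the 1000 strongest of both replicates (3.50%) had no pooled summit within 500 bp, as did 40 of 436 (9.17%) found among the 1000 strongest of replicate 1 only and 28 of 439 (6.38%) of replicate 2 only. Why the pooled list lacks them was not tested.

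**Figure D3:**
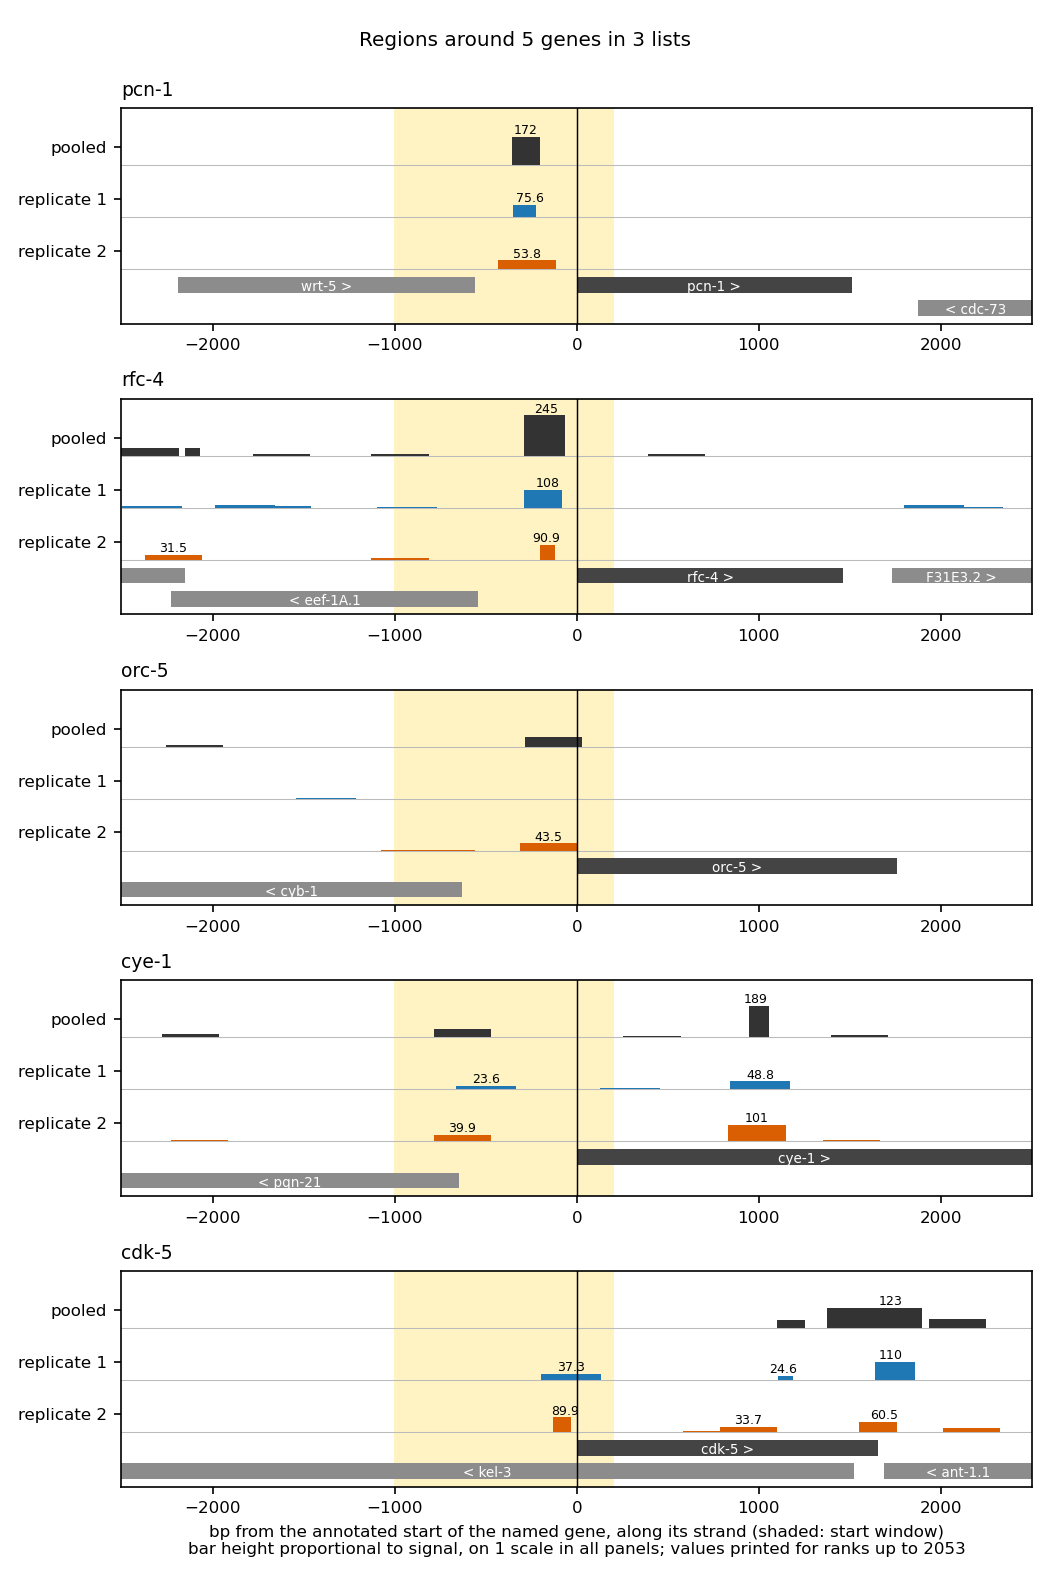
Regions within 2500 bp of the starts of pcn-1, rfc-4, orc-5, cye-1 and cdk-5 in the pooled list and both replicates, with bar height proportional to signal, the start window shaded and coding genes drawn below (> along the named gene, < opposite). The pcn-1 and rfc-4 regions coincide in the 3 tracks, the orc-5 region is missing in replicate 1, the strongest cye-1 peak lies 985 bp inside the gene, and at cdk-5 both replicates have a region at the start and the pooled track none.

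Regions at the remaining kinase and inhibitor genes differed between the replicates. cdk-4, the partner of cyclin D, had 31.5 in the pooled list, 17.7 in replicate 1 and 7.149 in replicate 2, with ranks 2711 and 17264 in the replicates. cki-2, a gene of the CIP/KIP inhibitor family, had 35.8 in the pooled list and 15.1 in replicate 1 (rank 3501), and no region in replicate 2. cdk-8, a Mediator kinase gene, had 30.3, 3.225 and 15.2 in the pooled, replicate 1 and replicate 2 lists, and cdk-12, another RNA polymerase II kinase gene, had 26.2, 2.873 and 17.75. cdk-1, the mitotic kinase gene, had 16.55 with replicate values of 3.245 and 6.438 and ranks 24541 and 19565, with the pooled summit in an intron of the divergent gene iff-1. cdk-11.1 had 10.8, the lowest pooled value, beside the thresholded peak of its paralogue cdk-11.2. cdk-2, cdk-14 and cki-1 had no region in the start window in any list.

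Among the other cdc genes, cdc-5L had 47.3 in the pooled list, 5.765 in replicate 1 and 16.5 in replicate 2, with replicate summits 639 bp apart, and cdc-42 had 23.5, 7.166 and 12.8, with summits 964 bp apart. cdc-26, a gene of the anaphase-promoting complex, had 22.4, 15.4 and 6.621, and cdc-50.B had 14.7 in the pooled list and 11.5 in replicate 2. Of the CDC25 phosphatase genes, cdc-25.1 and cdc-25.3 had weak regions in replicate 1 only (4.092 and 4.036), and cdc-25.2 and cdc-25.4 none. cdc-37 and cdc-73 had none in the start window in any list. In all, 21 of the 61 genes (34.4%) had no region in the start window in any list, beside 47.0% of all coding genes. The others with an empty start window were the replication genes cdt-1, orc-3, mcm-2, mcm-7, mcm-10, pri-2, psf-3, rfc-2 and rfc-3, the last with a peak further inside the gene.

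Many of these sites were shared with a neighbour. Of the 6 thresholded peaks, 4 (66.7%) lay in the start windows of 2 or more coding genes. Of the 1035 nuclear thresholded peaks in coding start windows, each counted once, 339 (32.8%) did. The 6 were reached through genes, which favours shared peaks, so the 2 shares cannot be compared. Of the 31 genes with a pooled region, 18 shared its summit, with orc-5 and cyb-1 both counted for their 1 region. The same share over all coding genes was not computed. By nearest start, 23 of the 31 kept a pooled region, which is 37.7% of the 61 genes beside 31.5% of all coding genes, whereas the shares without this condition were 50.8% and 36.8%. Pooled summits lay upstream of the start for 27 of the 31 genes (87.1%), at a median of -218 bp, while over all coding genes with a region 84.8% were upstream, at a median of -264 bp. Of the pooled summits of the 31 genes, 22 were intergenic, 3 in coding exons, 3 in RNA genes, 2 in untranslated exons and 1 in an intron. The intergenic summit of orc-5 and cyb-1 was counted for both genes. The places of summits over all coding genes were not computed.

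**Figure D4:**
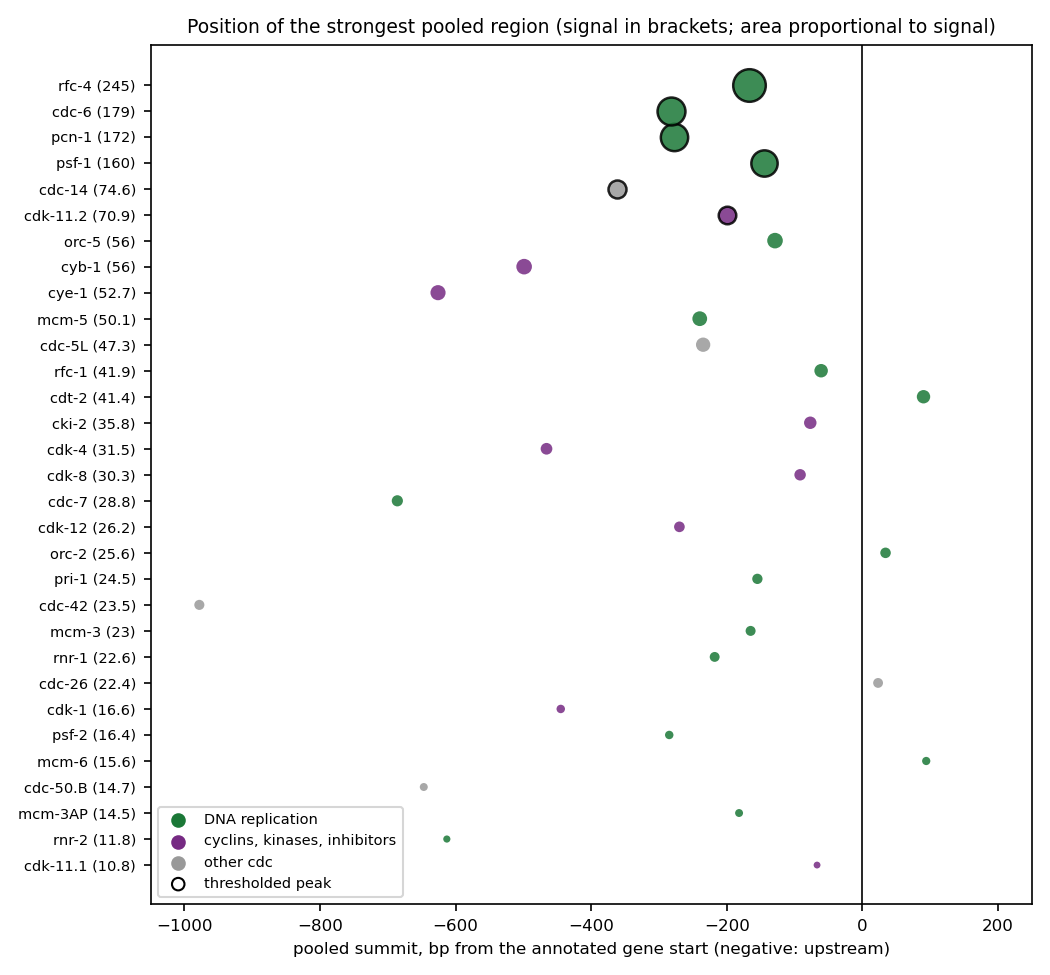
Position of the strongest pooled summit (bp from the annotated start, negative being upstream) for the 31 genes with a pooled region, with the signal in brackets and as the area of the point, coloured by class and outlined for a thresholded peak. The 6 outlined points lie between 145 and 362 bp upstream, and points of lower signal spread from 978 bp upstream to 94 bp downstream.

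Further genes of the pathway were examined through a list of 65 symbols, of which 62 matched the annotation. Thresholded peaks lay at 11 of the 62 starts (17.7%) and pooled regions at 40 (64.5%), beside 6.77% and 36.8% of all coding genes. The genes of E2F and the DREAM complex, which repress and activate cell cycle genes, had thresholded peaks at 5 of 9 starts (55.6%, all coding genes 6.77%): lin-54 (signal 365.5; replicate values 136 and 200.9), lin-53 (240.3; 78.2 and 142), lin-9 (237; 107 and 97.6), lin-52 (130.3; 107 and 25.9) and lin-35, the Rb gene (129; 24.97 and 88.6). The E2F subunit genes themselves were lower, as dpl-1 had a pooled signal of 21.5 and efl-1 and efl-2 had no pooled region. Of the cullin ligase genes, cul-4 (187; 59.8 and 96.1) and lin-23 (145.6; 27.9 and 85.8) had one, and single peaks lay at the fork factor gene ctf-4 (280; 69.9 and 183), the anaphase-promoting complex gene gfi-3 (121), the single-stranded DNA binding protein gene rpa-2 (108) and the checkpoint gene mdf-1 (107). None of 7 cohesin and condensin genes had one, where the share of all coding genes was 6.77%, and 5 had a pooled region. As at cdk-5, some starts had strong replicate regions but no pooled region in the window, and these genes were picked out after their values were seen. They were the topoisomerase gene top-2 (100.6 and 95.8 in replicates 1 and 2, ranks 169 and 343), the cohesin gene smc-3 (55.1 and 61.6, ranks 511 and 728), the checkpoint gene mdf-2 (44.0 and 53.3, ranks 695 and 920) and, in replicate 1 only, tim-1 (206.9, rank 53). Here too sites were shared, since the ctf-4 summit was nearer to eef-1G (31 bp), that of lin-54 nearer to rpl-12 (33 bp) and that of lin-53 nearer to nra-2 (211 bp). The lin-52 summit lay 200 bp downstream of the start, at the edge of the window. Those of lin-23 and rpa-2 lay 951 and 749 bp upstream. Narrower windows and nearest starts were not applied to the counts of this list. The list holds few genes per complex, and no test was made.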

How the data were processed

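The assay was chromatin immunoprecipitation and sequencing of GFP-tagged ZK185.1 in 2 biological replicates of whole young adult worms. Per the manifests deposited with each library, the authors called relaxed lists for single replicates and pooled reads against a control alignment and derived the thresholded list by the irreproducible discovery rate procedure. No source used here gives the aligner, caller or threshold. The signal column is the authors' deposited peak height of unstated scale, and the deposited −log10 q-value served in 1 alternative ranking. The depth per sample is unknown and limits the precision of every value by an unknown amount.

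Region ends on ce11 lay within the WBcel235 chromosomes in all 4 lists, and gene starts were those of Ensembl release 115. Positions are 1-based. The lists on ce10 were not used. Counting was done in Python 3.11.15 with pandas 2.3.3 and was tested on simulated data. Members were counted beside the same count over all nuclear protein-coding genes, with no list test and no p-value. The members and gene lists were chosen with earlier results of these data known. The genes named are those with a thresholded peak, the 15 others with the highest pooled signal, those found in 1 replicate only within its first 5000 ranks, those with no region, pathway genes with a thresholded peak, and further members chosen after their values were seen to complete a complex or family. Alternatives were other start windows, transcript starts, nearest starts, region overlap, the upper 50% of the lists and each replicate alone. Columns of other samples left unused numbered 0.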

Additional observations from a re-analysis of the deposited data

How the results depend on the processing

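No paired analysis was possible because there was 1 group of 2 replicates and no contrast between groups. Of 37 alternative values, 32 kept their count within 1.5 times of that reported, and 5 did not. With 1 replicate left out, the number of genes with a peak ranged from 6 to 12 over all members, the upper value being that of replicate 2 alone, which added cdk-5, cdk-7, cyb-1, cye-1, orc-1 and orc-5, and among cyclin, kinase and inhibitor genes from 3 to 5 instead of 1. Replicate 1 alone kept 3 of the 6 genes (cdc-6, pcn-1 and rfc-4). With a window of 2000 bp upstream, 7 instead of 4 of 29 replication genes had a peak (24.1%, all coding genes 9%, up from 6.77%), the additions being cdc-7, orc-2 and mcm-3AP, the last a symbol of another process. In the upper 50% of the thresholded list, 0 of 21 cyclin, kinase and inhibitor genes had one, because cdk-11.2 lay in the lower part. The share of all coding genes there was 3.98%, and with 21 genes 0 is near it. An alternative chosen after seeing the data left out the 6 symbols known for other processes (cdc-42, cdc-5L, cdc-37, cdc-73, cdc-50.B and mcm-3AP). Of the remaining 55 genes, 6 (10.9%) had a thresholded and 27 (49.1%) a pooled region, beside 6.77% and 36.8% of all coding genes. Ranking by the q-value column chose the same pooled region for all 31 genes. Depth is unknown, so an empty start window does not show that binding is absent.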
